A study of Mus musculus with 4 samples.

Results

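The genes described here copy DNA in S phase of the cell cycle. They were 42 genes fixed by name, covering origin licensing, the replicative helicase, the DNA polymerases, the sliding clamp and its loader, nucleotide supply, chromatin copying and entry into S phase. A gene was read by the brightest of the probe sets that name it alone, and 41 of the 42 had such a probe set, out of 18193 genes read this way on the arrays. Chaf1a was not analysed here, since no probe set in the annotation used here names it. RNA came from CD8 T cells sorted from spleens of wild-type B6 mice, on 4 Affymetrix arrays. Ly49+ cells (2 arrays) were sorted as CD44+CD122+Ly49+ and are named CD8+ Treg in the labels. Ly49- cells (2 arrays) were sorted as CD44+CD122+Ly49- and are named there as the conventional memory type. CD44 marks antigen-experienced T cells, CD122 is the beta chain of the interleukin-2 and interleukin-15 receptor, and Ly49 molecules are receptors for MHC class I. Both groups were thus CD44+CD122+ and differed by the Ly49 gate, and the series title ties the work to Helios, a transcription factor. Nothing in the labels says whether replicates were separate animals. The p-values therefore rest on a spread between samples that may be technical, and not on one known to lie between animals. They also draw on the trend of the spread over all genes (2 degrees of freedom among arrays and 6.70 from the prior).

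DNA replication starts when the origin recognition complex, Cdc6 and Cdt1 load the ring of Mcm2 to Mcm7 onto DNA in G1. Kinases then turn that ring into the active helicase with Cdc45, the GINS complex and Mcm10, and polymerases alpha, delta and epsilon copy the strands behind it. Most of these genes are transcribed by E2F factors as cells leave G1, and memory CD8 T cells with high CD122 keep a slow, interleukin-15 driven turnover in the spleen.

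Array medians of the deposited linear intensities lay between 188.5 and 190.4, and the pairwise correlation over all probe sets between 0.996 and 0.998. Precision is limited by there being 4 arrays. On the Ly49- replicate 1 array, the 9 probe sets of the first design for the spiked hybridisation controls (BioB, BioC, BioDn and CreX) read a median of 0.284 times their level on Ly49- replicate 2, while the 9 probe sets of the second design for the same spikes read 1.02 times that level. The probe set at the 5' end of 18S ribosomal RNA read 878 and 669 on the Ly49+ arrays, against 471 and 339 on the Ly49- arrays. T-cell markers were high in both groups, and 0 of 9 passed limma's test (2 had an unadjusted p under 0.05), with a median log2 fold change of -0.06 and summed intensities of 133265 and 133408 in Ly49+ cells, against 136394 and 135858 in Ly49- cells.

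Replication genes were read slightly lower in Ly49+ cells, nearly all in the same direction. Of the 41 genes, 40 had a lower mean in Ly49+ than in Ly49- cells, where 65.3% of all genes did, and 38 had both Ly49+ arrays below both Ly49- arrays, where 35.2% of all genes did so. By limma's test with Benjamini-Hochberg adjustment over all genes, 14 of 41 fell, where 2.07% of all genes fell, and none rose, where 1.93% of all genes rose (0 of 41 also at an unadjusted p under 0.05). At an unadjusted p under 0.05, 30 of the 41 were lower, against 13.0% of all genes. The shares over all genes include 5610 of 18193 genes read at or below the highest bacterial control probe set in at least 1 group. None of the 41 was read so low. The differences were small. The median log2 fold change was -0.24, against -0.04 over all genes, and the 14 genes that fell were 13.2% to 41.6% lower, on the log2(intensity + 16) scale used for every change below. In RNA from sorted pools, fewer cells in S phase and less of these RNAs per cell cannot be told apart.

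None of the 14 calls held with each of the 4 arrays left out in turn, which leaves the test 1 residual degree of freedom. Of the 14 genes, Gmnn and Rrm1 passed when Ly49+ replicate 1 was left out, and Pola1 passed when Ly49+ replicate 2 was. By limma's test, 0 of 41 genes passed when either Ly49- array was left out, with 26 of the 41 lower at an unadjusted p under 0.05 in each case. Below, the adjusted p of these 4 fits is given in the order Ly49+ replicates 1 and 2, then Ly49- replicates 1 and 2. The median log2 fold change lay between -0.25 and -0.21 in these 4 fits, and 40 of 41 genes were lower in each, or 41 of 41 when Ly49- replicate 1 was left out.

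**Figure D1:**
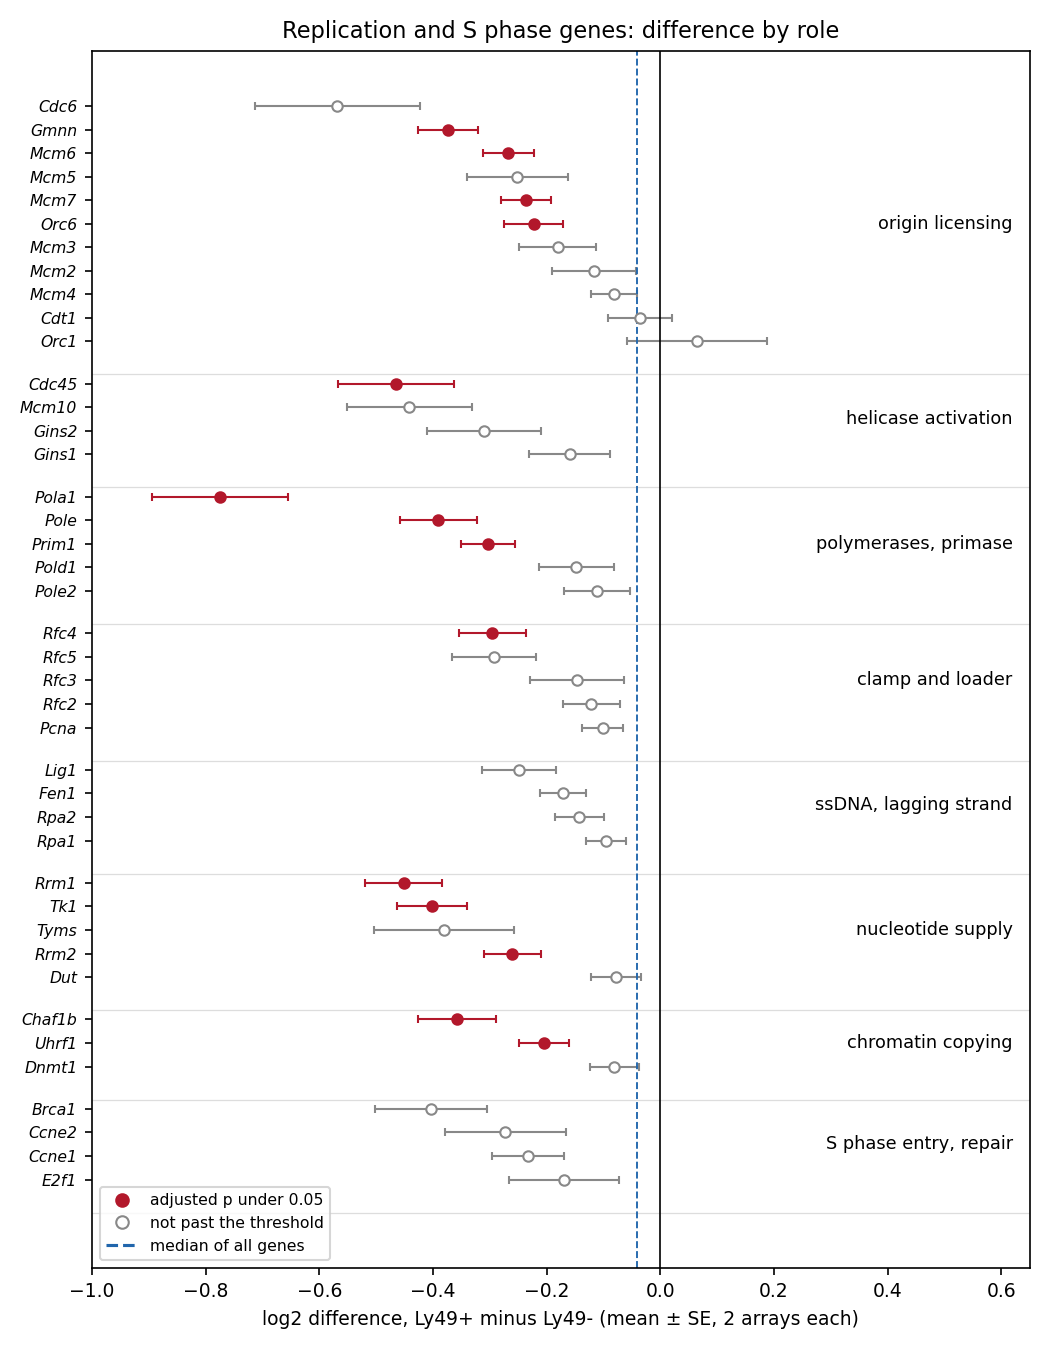
Log2 difference (Ly49+ minus Ly49-, mean ± SE from limma, 2 arrays per group) of 41 replication and S phase genes, grouped by role. Filled points mark the 14 genes with an adjusted p under 0.05, and all but Orc1 lie left of 0, with Pola1 farthest at -0.77.

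Markers of myeloid and natural killer cells were higher in Ly49+ cells on the same arrays, beside every gene group below, while the other marker lists gave at most 1 call in either direction. Of 10 myeloid markers, 9 rose (median log2 fold change 0.65), where 1.93% of all genes rose. The summed intensity of the 10 was 14628 and 16060 in Ly49+ cells, against 9789 and 9818 in Ly49- cells. Itgam, the integrin chain of most monocytes and neutrophils, was read at or below the highest bacterial control probe set in both groups. Of 8 natural killer cell markers, 6 rose (median 0.63), with sums of 33861 and 33439.5 in Ly49+ cells, against 16610.5 and 16725 in Ly49- cells. That list holds Klra8, which belongs to the family the cells were sorted on, and Ncr1, which marks natural killer cells, was at or below the bacterial controls in both groups. Among 9 B-cell markers 1 rose and 1 fell (3 were higher and 1 was lower at an unadjusted p under 0.05). Among 8 plasma cell markers 1 fell. For B cells the sums were 18670.1 and 19989 in Ly49+ cells, against 18814 and 19852 in Ly49- cells. Ighm made up most of these sums, at 13508 and 14523 in Ly49+ cells, against 14415 and 15442 in Ly49- cells. Cd22, which rose, read 2191 and 2361 in Ly49+ cells, against 1082 and 1095 in Ly49- cells. Cd79b, which fell, read 2050 and 2020 in Ly49+ cells, against 2488 and 2462 in Ly49- cells. The B-cell markers Pax5 and Cr2 were at or below the bacterial controls in both groups. Plasma cell sums were 12194 and 11851 in Ly49+ cells, against 13454 and 12169 in Ly49- cells. Dendritic-cell markers gave 1 rise and 1 fall among 7 (4 were higher and 2 were lower at an unadjusted p under 0.05). Their sums were 5674 and 5898 in Ly49+ cells, against 6304 and 6244 in Ly49- cells. Of 6 erythroid markers 0 passed limma's test (2 had an unadjusted p under 0.05), and Epor and Hba-a1 were at or below the bacterial controls in both groups. The part of these cells in the differences of the replication genes was not tested.

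Array by array, the 41 genes were set against the mean of the Ly49- arrays. The median of the 41 genes was -0.21 on Ly49+ replicate 1 and -0.25 on Ly49+ replicate 2, while it was -0.01 and 0.01 on the Ly49- arrays. On each Ly49+ array, 40 of 41 genes were below that mean. Replicates of a group differed by a median of 0.07 on the log2 scale in either group, regardless of sign. The widest gap between Ly49+ replicates was in Cdc6 (0.49), and that between Ly49- replicates was in Cdc45 (0.24).

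**Figure D2:**
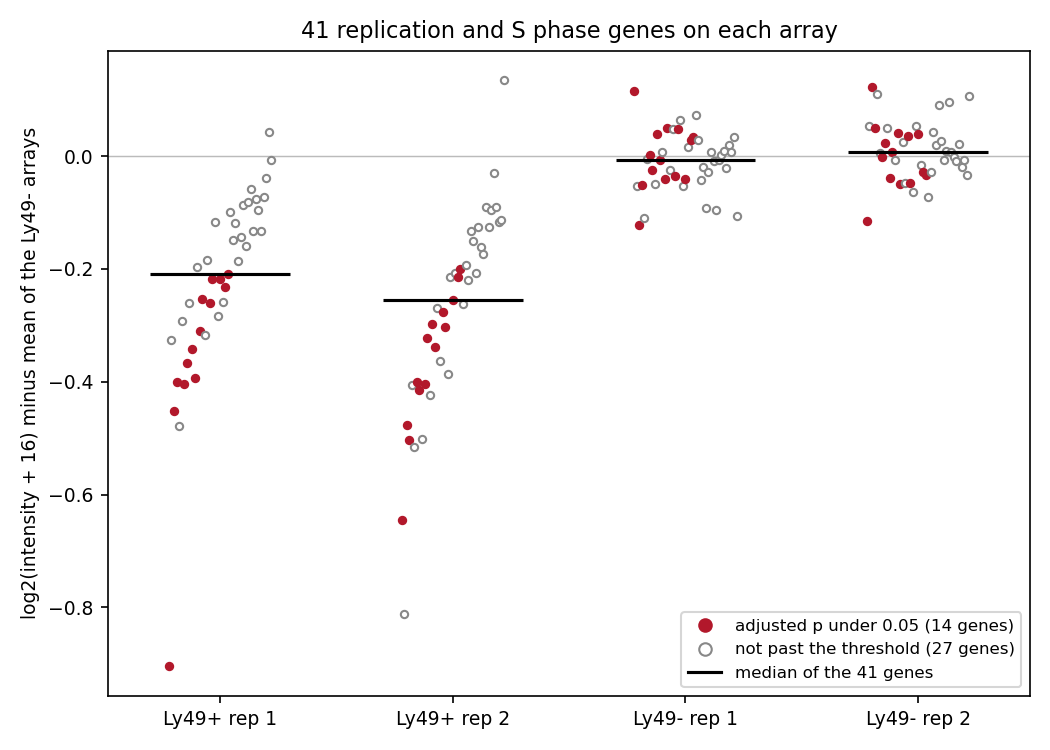
Level of each of the 41 genes on each array, as log2(intensity + 16) minus the mean of the Ly49- arrays, with a bar at the median of the 41 genes. Medians were -0.21 and -0.25 on the Ly49+ arrays, and -0.01 and 0.01 on the Ly49- arrays.

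The promoters of these genes are known for E2F sites, so the 300-base windows around the annotated starts (250 bases before to 50 after, RefSeq, GRCm38.p6) were searched for the E2F motifs TTTCCCGC, TTTGGCGC, TTTCGCGC and TTTGCCGC on both strands, with overlapping matches counted, and for CCAAT, the core of NF-Y sites. Windows were found for 35 of the 42 genes. An E2F motif stood in 14 of the 35 (40.0%), against 2.60% of 27025 genes in the promoter table and 3.81% of the 14452 of them that were on the arrays. CCAAT stood in 21 of the 35 (60.0%), against 41.1% of all genes in the table. Among the genes that fell, 4 of 12 with a window held an E2F motif (33.3%), and among those that did not pass 10 of 22 did (45.5%). CCAAT stood in 9 of those 12 and in 11 of those 22. Neither difference was tested. The stretches below are those of the 4 genes that fell with a match before the start (Pola1, Mcm6, Mcm7 and Uhrf1), followed by Cdc6 and Orc1, chosen after their values were seen as the largest difference among the genes that did not pass and the only positive one. Each runs 5′ to 3′ on the gene's strand, with the E2F motifs in capitals. A match describes the letters and is not a measured binding site.
Pola1, chrX:93632266-93632313, minus strand: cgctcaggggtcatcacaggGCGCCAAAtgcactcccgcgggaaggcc
Mcm6, chr1:128359725-128359835, minus strand: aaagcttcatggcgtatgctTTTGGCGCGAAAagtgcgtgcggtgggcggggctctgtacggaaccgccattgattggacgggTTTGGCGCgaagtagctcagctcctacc
Mcm7, chr5:138172021-138172068, minus strand: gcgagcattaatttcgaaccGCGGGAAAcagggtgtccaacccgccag
Uhrf1, chr17:56304108-56304155, plus strand: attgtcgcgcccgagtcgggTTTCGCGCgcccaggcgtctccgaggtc
Cdc6, chr11:98907993-98908040, plus strand: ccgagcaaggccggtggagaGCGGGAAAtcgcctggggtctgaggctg
Orc1, chr4:108579407-108579453, plus strand: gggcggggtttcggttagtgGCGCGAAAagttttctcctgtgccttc

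The motif began 138 bases before the annotated start in Pola1 and in Cdc6, 165 bases before it in Mcm7, 185 in Uhrf1 and 27 in Orc1. Mcm7 and Uhrf1 each had 2 windows, and the window of the other annotated start held no E2F motif. Mcm6 had 3 matches, of which the first pair overlapped on opposite strands 110 bases before the start and the last lay 47 bases before it. In all, 21 matches were counted in the 14 genes, 12 before the start and 9 at or after it.

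**Figure D3:**
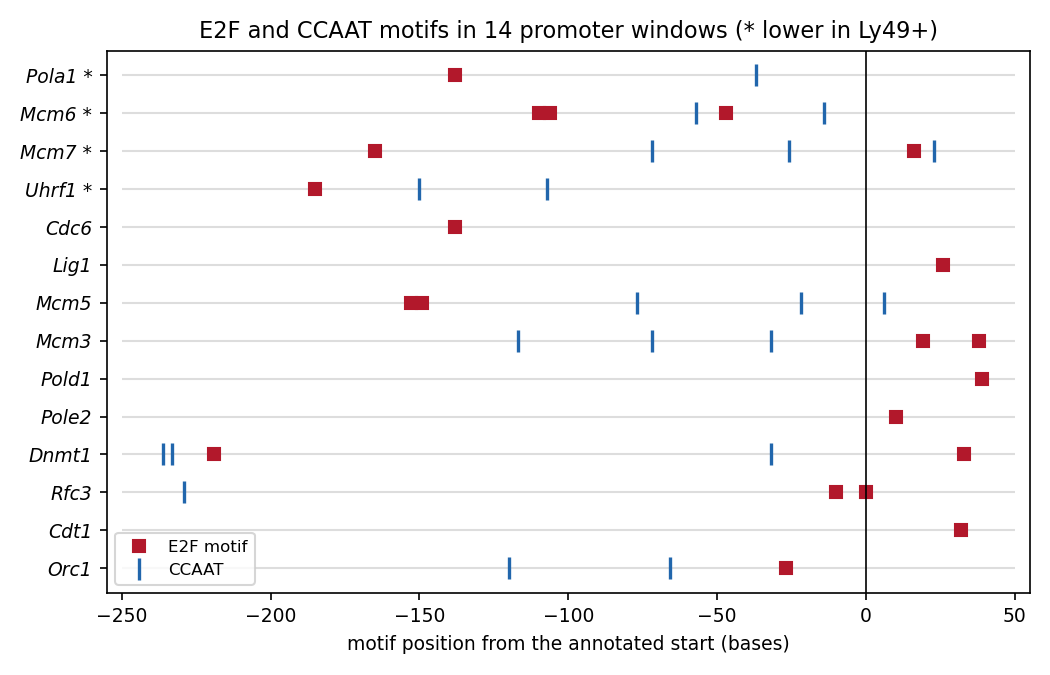
Positions of E2F motifs (squares) and CCAAT (bars) in the promoter windows of the 14 genes with an E2F motif, in bases from the annotated start, ordered by the p of the gene. Asterisks mark the 4 genes that fell in Ly49+ cells, and 12 of the 21 E2F matches lie before the start.

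Origin licensing genes fell in 4 of 11 cases, and 7 did not pass. Gmnn encodes geminin, which binds Cdt1 and blocks a new round of licensing in S and G2 phase. It had intensities of 3575 and 3421 in Ly49+ cells, against 4659 and 4412 in Ly49- cells (log2 fold change -0.37 ± 0.05 SE, limma adjusted p = 0.0061). The groups were well apart, and Gmnn had the smallest p of the 41 genes. Its adjusted p with each array left out in turn was 0.033, 0.068, 0.077 and 0.058.

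Among the subunits of the MCM ring, Mcm6 and Mcm7 fell. Mcm6 read 5563 and 5498 in Ly49+ cells, against 6503 and 6827 in Ly49- cells (log2 fold change -0.27 ± 0.04, adjusted p = 0.013). Mcm7 read 7993 and 7791 in Ly49+ cells, against 9044 and 9560.0 in Ly49- cells (-0.24 ± 0.04, adjusted p = 0.020). In both genes the Ly49+ replicates were closer together than the Ly49- replicates, with no overlap. The other subunits, which form the same ring, did not pass, with log2 fold changes of -0.25 for Mcm5 (adjusted p = 0.18), -0.18 for Mcm3 (0.21), -0.12 for Mcm2 (0.46) and -0.08 for Mcm4 (0.34). Mcm2 overlapped between the groups, at 2933 and 2706 in Ly49+ cells, against 2858 and 3266 in Ly49- cells. Further probe sets of 3 subunits, each tested by limma on its own, gave other sizes. For Mcm6 they gave -0.10 (adjusted p = 0.45) and, below the bacterial controls, -0.004. Those of Mcm5 gave -0.30 (adjusted p = 0.077) and -0.08 (adjusted p = 0.80). That of Mcm2 gave -0.18 (adjusted p = 0.17), with no overlap between the groups. Differences between the subunits were not tested.

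The loading factors and the origin recognition complex held both the largest difference of this role and the only positive one. Cdc6, the ATPase that brings the MCM ring to the origin, read 606 and 428 in Ly49+ cells, against 735 and 793 in Ly49- cells (-0.57 ± 0.15, adjusted p = 0.075). Both Ly49+ arrays were lower, but they were far from each other. With Ly49+ replicate 1 left out, Cdc6 passed (adjusted p = 0.015). Cdt1, the loading factor that geminin inhibits and that is destroyed in S phase, read 8572 and 7696 in Ly49+ cells, against 8522 and 8132 in Ly49- cells (-0.04 ± 0.06, adjusted p = 0.80), so that the groups overlapped. Orc6, a subunit of the origin recognition complex, read 3016 and 3053 in Ly49+ cells, against 3616 and 3475 in Ly49- cells (-0.22 ± 0.05) and lay just inside the threshold at an adjusted p of 0.0497. Orc1, the subunit that varies with the cell cycle in many cells, was the only gene with a positive difference by its brightest probe set. That probe set read 188 and 209 in Ly49+ cells, against 174 and 205 in Ly49- cells (0.06 ± 0.12, adjusted p = 0.85). The other probe set of Orc1 gave -0.22, with overlapping groups. For the 4 genes of this role that fell, arrays left out in turn gave an adjusted p of 0.033 to 0.29, 0.068 to 0.24, 0.063 to 0.17 and 0.058 to 0.15.

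All 4 genes that turn the loaded ring into a helicase had lower values in Ly49+ cells with no overlap, as did 35.2% of all genes. Of the 4, 1 fell. Cdc45, a subunit of the active helicase, read 559 and 549 in Ly49+ cells, against 707 and 841 in Ly49- cells (-0.46 ± 0.10, adjusted p = 0.042). Mcm10, which is needed to start unwinding, read 338 and 356 in Ly49+ cells, against 441 and 516 in Ly49- cells (-0.44 ± 0.11, adjusted p = 0.067). Gins2, a GINS subunit, read 606 and 515 in Ly49+ cells, against 700.5 and 693 in Ly49- cells (-0.31 ± 0.10, adjusted p = 0.14). In Cdc45 and Mcm10 the Ly49- replicates were farther apart than the Ly49+ replicates, and in Gins2 the Ly49+ replicates were. Gins1, another GINS subunit, differed by -0.16 (adjusted p = 0.28). Cdc45 missed the threshold whichever array was left out (adjusted p = 0.18, 0.195, 0.076 and 0.25).

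Polymerase and primase genes held the largest change of the whole set, and 3 of 5 fell. Pola1, the catalytic subunit of polymerase alpha, which starts each new strand, read 411 and 495 in Ly49+ cells, against 850.2 and 723 in Ly49- cells (-0.77 ± 0.12, adjusted p = 0.0091). It was 41.6% lower. Prim1, the catalytic subunit of the primase that works in the same complex, read 4759 and 4801 in Ly49+ cells, against 5735 and 6074 in Ly49- cells (-0.30 ± 0.05, adjusted p = 0.0099). Pole, the catalytic subunit of the leading-strand polymerase epsilon, read 1163 and 1125 in Ly49+ cells, against 1480.0 and 1531 in Ly49- cells (-0.39 ± 0.07, adjusted p = 0.016). For each of these the Ly49+ arrays lay clearly below the Ly49- arrays. Pole2, the second subunit of polymerase epsilon, differed by -0.11 (adjusted p = 0.36) and Pold1, the catalytic subunit of the lagging-strand polymerase delta, by -0.15 (adjusted p = 0.29). For the 3 genes that fell, arrays left out in turn gave an adjusted p of 0.062 to 0.088, 0.021 (Pola1) to 0.13, 0.054 to 0.12 and 0.073 to 0.14.

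Of the sliding clamp and its loader, Rfc4 fell, and 4 of 5 genes did not pass. Rfc4, a loader subunit, read 2834 and 2669.9 in Ly49+ cells, against 3498 and 3265 in Ly49- cells (-0.30 ± 0.06, adjusted p = 0.028). Rfc5, another loader subunit, read 881 and 911 in Ly49+ cells, against 1082 and 1120.0 in Ly49- cells (-0.29 ± 0.07, adjusted p = 0.071). The difference of Rfc5 was about that of Rfc4. Its limma error was wider, though its replicates lay closer together on the log2 scale. That error also draws on the trend of the spread over all genes. Pcna, the clamp that holds polymerases on DNA, read 13739 and 13273 in Ly49+ cells, against 14502 and 14480.1 in Ly49- cells (-0.10 ± 0.04, adjusted p = 0.17). The groups of Pcna did not overlap, but the gap was small. Rfc2 and Rfc3 differed by -0.12 and -0.15 (adjusted p = 0.24 and 0.40). Rfc4 missed the threshold whichever array was left out (adjusted p = 0.096, 0.22, 0.15 and 0.11).

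None of the 4 genes for single-stranded DNA and the lagging strand passed limma's test after adjustment, though all 4 had an unadjusted p under 0.05 and no overlap. Of all genes, 13.0% were lower at that p and 35.2% were lower with no overlap. Fen1, the nuclease that trims the primer flap of Okazaki fragments, read 9902 and 9599 in Ly49+ cells, against 11197 and 10771 in Ly49- cells (-0.17 ± 0.04), and lay just outside the threshold at an adjusted p of 0.053. Lig1, the ligase that joins the fragments, read 1719 and 1802 in Ly49+ cells, against 2018 and 2174 in Ly49- cells (-0.25 ± 0.07, adjusted p = 0.080). Rpa2, a subunit of the complex that coats single-stranded DNA, read 4991 and 5108 in Ly49+ cells, against 5599 and 5549.7 in Ly49- cells (-0.14 ± 0.04, adjusted p = 0.13). All 3 had Ly49+ values below each Ly49- value by more than the gap between replicates. Rpa1, the large subunit of the same complex, differed by -0.10 (adjusted p = 0.20).

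Nucleotide supply genes fell in 3 of 5 cases. Rrm1, the large subunit of ribonucleotide reductase, which makes deoxyribonucleotides, read 1633 and 1518 in Ly49+ cells, against 2084 and 2237 in Ly49- cells (-0.45 ± 0.07, adjusted p = 0.0085). Rrm2, its S phase subunit, read 6388 and 6024 in Ly49+ cells, against 7685 and 7191 in Ly49- cells (-0.26 ± 0.05, adjusted p = 0.025). Tk1, the salvage kinase for thymidine, read 1414 and 1416 in Ly49+ cells, against 1877 and 1874 in Ly49- cells (-0.40 ± 0.06, adjusted p = 0.0088). The replicates of Tk1 were almost identical in both groups. Tyms, which makes thymidylate, differed by -0.38 ± 0.12 (adjusted p = 0.14), and Dut, which removes dUTP, by -0.08 ± 0.04 (adjusted p = 0.40). With arrays left out in turn, the adjusted p of the 3 genes that fell was 0.033 (Rrm1) to 0.075, 0.075 to 0.21, 0.067 to 0.14 and 0.091 to 0.11.

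Of 3 measured genes for copying chromatin, 2 fell. Chaf1b, a subunit of the assembly factor that places histones on new DNA, read 1117 and 1173 in Ly49+ cells, against 1464 and 1479 in Ly49- cells (-0.36 ± 0.07, adjusted p = 0.023). Uhrf1, which guides maintenance methylation to hemimethylated DNA, read 5636 and 5674 in Ly49+ cells, against 6671 and 6369 in Ly49- cells (-0.20 ± 0.04, adjusted p = 0.041). Dnmt1, the maintenance methyltransferase that Uhrf1 recruits, read 12414 and 13321 in Ly49+ cells, against 13408 and 13809 in Ly49- cells (-0.08 ± 0.04, adjusted p = 0.37). The Ly49+ arrays lay below the Ly49- arrays in all 3, in Dnmt1 by less than the gap between its Ly49+ replicates. Neither Chaf1b (adjusted p = 0.19, 0.10, 0.12 and 0.16) nor Uhrf1 (0.25, 0.22, 0.15 and 0.11) passed with an array left out. After quantile normalization Uhrf1 did not pass either, nor did Cdc45 and Orc6.

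The genes for S phase entry and for repair at forks did not pass. Brca1, which protects stalled forks and repairs breaks, read 608 and 518 in Ly49+ cells, against 745 and 751 in Ly49- cells (-0.40 ± 0.10, adjusted p = 0.063). Ccne1, a cyclin that drives entry into S phase with Cdk2, read 1467 and 1522 in Ly49+ cells, against 1778 and 1739 in Ly49- cells (-0.23 ± 0.06, adjusted p = 0.087). Ccne2, the related cyclin, read 387 and 340.0 in Ly49+ cells, against 457 and 427 in Ly49- cells (-0.27 ± 0.11, adjusted p = 0.22). Groups did not overlap in any of these, where 35.2% of all genes were lower with no overlap. An unadjusted p under 0.05 was found in 3 of the 4 genes, where 13.0% of all genes were lower at that p. E2f1, an activating E2F factor, differed by -0.17 ± 0.10 (adjusted p = 0.41).

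Most genes had further probe sets on the same arrays, which name the same gene in the annotation. Whether they read the same RNA was not tested. For 32 of the 41 genes there were 50 such probe sets, and 45 of the 50 had a lower mean in Ly49+ cells, where 61.8% of all probe sets that name 1 gene did. With each of 34945 probe sets tested on its own, 3 of the 50 passed as lower, against 0.896% of all probe sets, and none as higher. Of the 41 brightest probe sets, 9 passed in that fit. Rrm2 was read lower by its other probe sets as well, by -0.66 (adjusted p = 0.016) and -0.52 (adjusted p = 0.085), each past the -0.26 of its brightest probe set, which is of a kind that may also detect other transcripts. Mcm7 had 3 further probe sets at -0.25, -0.23 and -0.33, with adjusted p of 0.035, 0.10 and 0.043. The brightest probe set of Mcm7 and those at -0.25 and -0.23 may also detect other transcripts, as may the brightest of Rfc4. With all probe sets of that kind left out, Rrm2, Rfc4 and Orc6 did not pass, while 3 genes passed that had not. The other probe set of Prim1 gave -0.25 (adjusted p = 0.064), and that of Ccne1 gave -0.35 (adjusted p = 0.073). For Mcm3, 4 further probe sets lay between -0.25 and -0.13, and for Mcm10 those 2 gave -0.41 and, with a Ly49+ mean below the bacterial controls, -0.26.

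Some probe sets of a gene differed in sign or size from the brightest. For Rrm1, 1 further probe set gave 0.21 (adjusted p = 0.60), with overlapping groups, and another gave -0.42 (adjusted p = 0.071). The second probe set of Cdc45 gave -0.02 and those of Dnmt1 gave 0.02 and 0.03, and the second of Mcm4 gave 0.01, and none of these passed. That of Orc1 gave -0.22 (adjusted p = 0.50), at 138 and 154 in Ly49+ cells, against 153 and 195 in Ly49- cells. Pola1 rested on a single probe set, since its other one was read below the bacterial controls, at 31.7 and 25.1 in Ly49+ cells, against 27.2 and 26.1 in Ly49- cells. Among 8 further probe sets at or below those controls in at least 1 group, the median log2 fold change was -0.04, and among the 42 above them in both groups it was -0.17. When all probe sets of a gene were averaged, 8 of the 41 genes fell, of which 2 had not passed by their brightest probe set. Orc1 had a difference of -0.08. Among the genes that fell by their brightest probe set, Pola1, Rrm1, Mcm6, Chaf1b, Rfc4, Uhrf1, Cdc45 and Orc6 did not pass. Orc6 has 1 probe set, so averaging left its own values as they were. The other probe set of Chaf1b, like that of Pola1, was read below the bacterial controls.

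**Figure D4:**
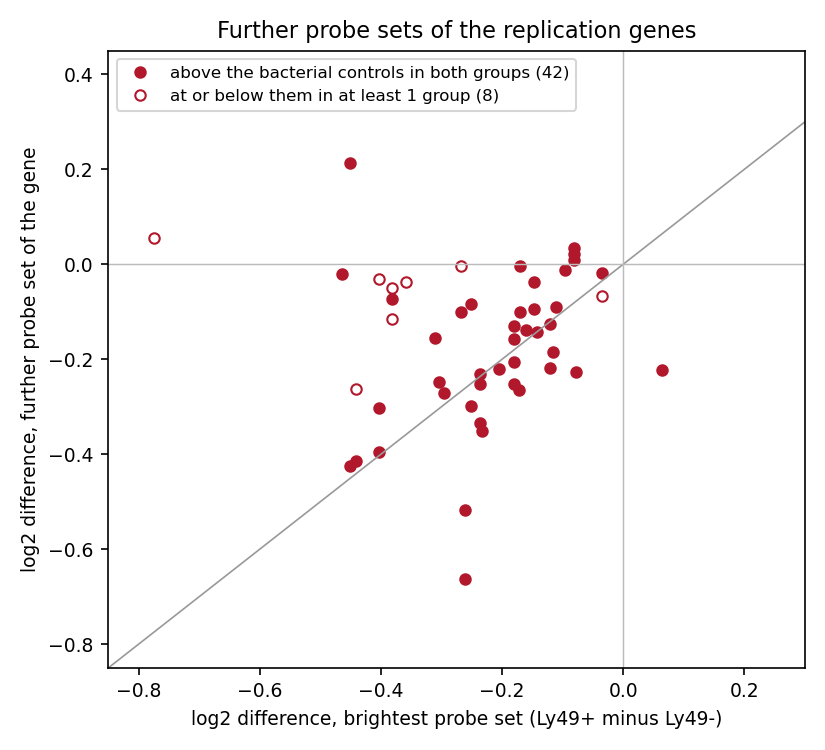
Log2 difference (Ly49+ minus Ly49-) of 50 further probe sets against that of the brightest probe set of the same gene, with the line of equal values. Open points are the 8 at or below the bacterial controls in at least 1 group, and 45 of the 50 points lie below 0 on the vertical axis.

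Other genes of the replication machinery were taken from a separate list of 48, of which 46 were measured. Of the 46, 5 fell, 0 rose and 41 did not pass, where 2.07% of all genes fell and 1.93% rose. The median log2 fold change was -0.15, and 38 of the 46 had a lower mean in Ly49+ cells. At an unadjusted p under 0.05, 23 of the 46 were lower and 2 were higher, where 13.0% of all genes were lower. The 2 higher genes were the histone mRNA binding factor Slbp, at a log2 fold change of 0.13, and the histone chaperone subunit Supt16, at 0.10. Asf1b, a histone chaperone of dividing cells, read 2032 and 2056 in Ly49+ cells, against 2862 and 2789 in Ly49- cells (-0.46 ± 0.05, adjusted p = 0.0030). Clspn, which encodes the fork checkpoint protein claspin, read 682 and 708 in Ly49+ cells, against 1003 and 1002 in Ly49- cells (-0.52 ± 0.08, adjusted p = 0.0081). In both the replicates were close and the groups well apart. Rnaseh2a, a subunit of the enzyme that removes ribonucleotides from DNA, fell by 0.24 (adjusted p = 0.029), Chtf18, part of an alternative clamp loader, by 0.42 (0.035) and Gins3, a GINS subunit, by 0.32 (0.044). With arrays left out in turn, Asf1b had an adjusted p of 0.029, 0.030, 0.055 and 0.0504, and Clspn of 0.071, 0.052, 0.086 and 0.094. Rnaseh2a, Chtf18 and Gins3 were at 0.12 or above in each of these fits.

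Among 12 genes of the E2F and retinoblastoma families, which switch replication genes on and off, 3 fell and 9 did not pass. The share of all genes that fell was 2.07%. E2f2, an activating factor, read 929 and 888 in Ly49+ cells, against 1400.4 and 1394 in Ly49- cells (-0.61 ± 0.07, adjusted p = 0.0027). E2f8, a repressor expressed late in S phase, read 602 and 539.6 in Ly49+ cells, against 934 and 872 in Ly49- cells (-0.65 ± 0.09, adjusted p = 0.0062). Both genes were lower by more than any gap between replicates. E2f6, another repressor, fell by 0.30 (adjusted p = 0.039), and E2f7 differed by -0.47 (adjusted p = 0.21). The median of the family was -0.06, with Rb1, Rbl1 and Rbl2, which encode the retinoblastoma protein and its relatives, at -0.03, -0.04 and -0.03. With arrays left out in turn, the adjusted p was 0.016, 0.030, 0.056 and 0.058 for E2f2, 0.0199, 0.054, 0.092 and 0.075 for E2f8, and 0.26, 0.15, 0.15 and 0.18 for E2f6.

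Genes listed for mitosis and chromosome segregation gave larger differences on the same arrays. Of 30 measured, 21 fell, where 2.07% of all genes fell. The median log2 fold change was -0.45, with values between -0.72 and -0.20. For the replication genes the median was -0.24, with values between -0.77 and 0.06. The difference between these lists was not tested.

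**Figure D5:**
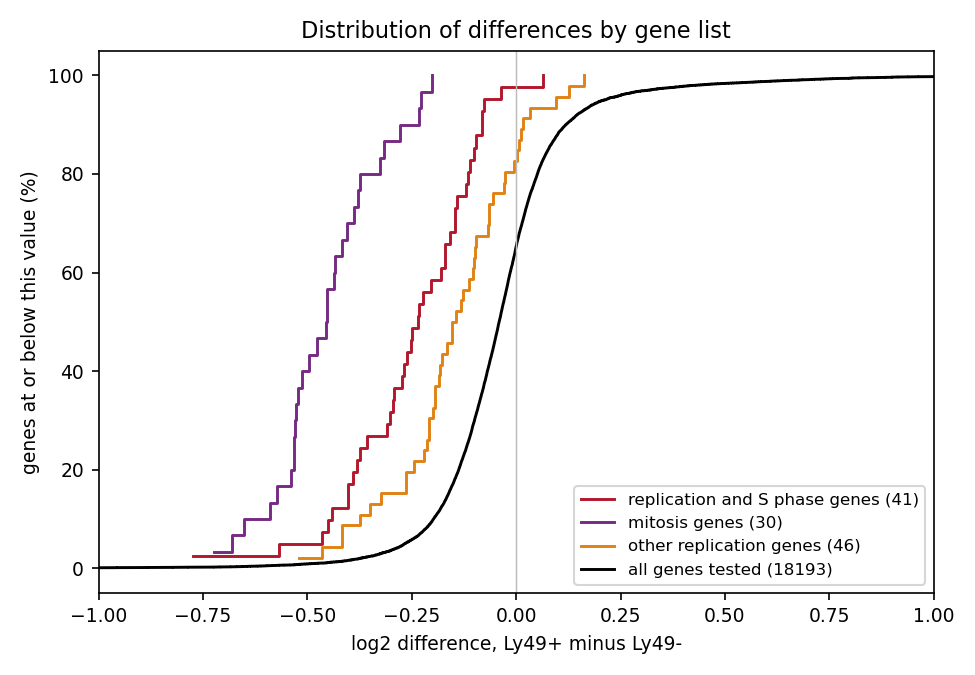
Cumulative share of genes (%) by log2 difference (Ly49+ minus Ly49-) for 41 replication and S phase genes, 30 mitosis genes, 46 other replication genes and all 18193 genes tested. Medians were -0.24, -0.45, -0.15 and -0.04.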

How the data were processed

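Total RNA of sorted cells was biotin-labelled by the Affymetrix protocol, per the labels' protocols. The authors deposited a linear intensity for each probe set, with nearly equal medians on the 4 arrays, and the summary and normalization methods are not given in the sources used here. Of 45101 probe sets, 34945 named 1 gene in the platform annotation of 2016, and each of 18193 genes was read by its brightest probe set (highest mean log2(intensity + 16)). Intensities were transformed to log2(intensity + 16) and tested with limma 3.58.1 in R 4.3.3 (group as the only term, trend of the spread, 2 degrees of freedom among arrays and 6.70 from the prior). Adjustment was by Benjamini-Hochberg over all genes, with a threshold of 0.05. The test was tried on simulated data. Tables were read with the data.table package (1.17.8), and promoters and plots were made with Python 3.11.15, pandas 2.3.3 and matplotlib 3.10.9.

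A probe set was dim where its lower group mean was at or under 68.4, the highest group mean of 27 bacterial control probe sets, and none of the 41 replication genes was. Full values are given for up to 3 genes with the smallest p in each role, and other genes with full values were picked with their values known. The genes and lists were chosen with earlier results of these data known. Promoter windows came from RefSeq (GRCm38.p6). Alternatives were quantile normalization, other pseudocounts, filters, choices of probe set and estimates of the spread, a replicate block, a threshold of 0.1 and each array left out.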

Additional observations from a re-analysis of the deposited data

How the results depend on the processing

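The direction of the replication genes kept under the alternatives that could change it, and the number of calls did not. Between 39 and 41 of the 41 genes were lower in Ly49+ cells under each of the 15 alternatives, and none rose under any of them. Alternatives that altered only the estimate of the spread, the threshold or the filter on dim genes could not change a sign. The replicate block could not either, since each group held both replicate numbers. The signs under these settings are therefore no check of the direction. The median log2 fold change was -0.27 with probe sets open to cross-hybridisation left out and -0.25 to -0.21 with an array left out. Against 14 genes that fell, 8 did with each gene's probe sets averaged, 2 (Pole and Tk1) without a trend of the spread, and 0 to 3 with an array left out. The replicate numbers are shared by the groups, but nothing in the labels says that they mark a shared animal or day. The correlation over all genes of the difference between replicates 1 and 2 was 0.24 between the groups, and over the 41 replication genes it was 0.03. With the replicate block 23 of the 41 genes fell, against 14 without it, as did 10 of the other replication genes and 1527 genes in all.

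Of the other replication genes, 5 fell, against 2 after quantile normalization, 3 with a pseudocount of 64, 3 with probe sets averaged, 3 without a trend and 0 to 1 with an array left out. In all, 728 genes were called, against 371 without a trend, 1256 at a threshold of 0.1 and 107 to 289 with an array left out. Signs turned in 3 genes near 0. Orc1 was at -0.080 with its probe sets averaged and at -0.043 to 0.17 with an array left out, Cdt1 was at -0.11 to 0.042 with an array left out, and Dnmt1 was at 0.035 with probe sets open to cross-hybridisation left out. The cause of these changes was not tested. The fits that left an array out differed both in the number of arrays and in the values they held. The rule for the brightest probe set, by the mean of linear intensities, was added after seeing the data and gave 13 genes, without Orc6. With 2 arrays in each group, the genes that passed were 13.2% to 41.6% lower, and Cdc6, at 32.6% lower with a wide gap between its Ly49+ replicates, did not pass.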
